A study of Mus musculus with 20 samples.

Results

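Small leucine-rich proteoglycans (SLRPs) are secreted matrix proteins whose core carries a run of leucine-rich repeats, and most members also carry chondroitin, dermatan or keratan sulfate chains. They sit on collagen fibrils, where they set fibril diameter and spacing, and several bind growth factors such as TGFβ or the receptors of innate immunity. In kidney, fibroblasts and myofibroblasts are a known source of decorin and biglycan, and the family is much studied in fibrosis. The members were listed by name and are Dcn, Bgn, Aspn, Lum, Fmod, Kera, Prelp, Omd, Ogn and Podn. All 10 were among the 51826 genes of the count table, and 9 of them were among the 20407 genes with enough counts to be tested. Keratocan (Kera) was not tested.

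RNA was sequenced from primary renal myofibroblasts cultured from C57BL/6J mice, in 20 poly-A libraries that fell into 4 groups of 5. The groups were wild type (WT) untreated, WT treated with TGFβ1, WWP2-/- (labelled KO) untreated and WWP2-/- treated with TGFβ1. WWP2 is a ubiquitin ligase of the NEDD4 family, the WWP2-/- line is a germline deletion bred beside WT littermates, and the cells were at passage P2. The study asked how the loss of WWP2 changes the myofibroblast, and the dose and duration of TGFβ1 are given by the study and not by the labels.

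Each library held 47520759 to 73063697 counts. Wwp2 itself lay at 49.99 to 59.8 CPM (counts scaled to library size by edgeR's TMM) in WT and at 17.0 to 22.7 CPM in WWP2-/- libraries, so every library matched its genotype label. Xist, the RNA of the inactive X chromosome in female cells, was above 1 CPM in 4 of 5 libraries of each WT group, in 2 of 5 untreated WWP2-/- libraries and in 1 of 5 treated ones, so Xist was unevenly spread over the genotypes. Acta2, which encodes the smooth muscle actin that defines a myofibroblast, was at 1016 to 3430 CPM in 18 libraries but at 38.9 CPM in WWP2-/- untreated replicate 3 and 50.4 CPM in WWP2-/- TGFβ1 replicate 1, and both of these libraries had Xist. In WT, untreated replicate 4 and TGFβ1 replicate 3 had no more than 0.1197 CPM of Xist. The other markers of myofibroblasts had counts in every group but not at like levels. Pdgfra had medians of 75.7 and 123 CPM in untreated and treated WT, against 1.87 and 0.593 CPM in WWP2-/-. For Fap the medians were 24.6 and 44.1 CPM against 0.636 and 0.404 CPM, and the ranges of both genes overlapped between genotypes. Of 10 myofibroblast markers, 8 had negative fold changes in WWP2-/- with TGFβ1 and 6 untreated. Untreated, the medians of Acta2, Tagln, Vim and S100a4 were higher in WWP2-/-, at 2000, 17.7, 3254 and 2.51 CPM. In untreated WT they were 1132, 9.95, 2566 and 1.32 CPM. The 10 macrophage markers summed to between 61.9 and 3989 CPM per library. Because these are bulk libraries, fewer cells of a type and less RNA per cell cannot be told apart, and the labels do not state that replicates are separate animals, so P values measure the spread between these samples. The study's methods name a mouse or its cells as the usual data point, and Xist differed between replicates of each group.

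The members lie mostly in clusters on the mouse genome (GRCm38, GENCODE M21). Prelp and Fmod are neighbours on chromosome 1 within a span of 151.1 kb that also holds Optc. Dcn, Lum and Kera lie with Epyc in 202.8 kb of chromosome 10. Aspn, Omd and Ogn lie with Ecm2 in 119.7 kb of chromosome 13, Podn is on chromosome 4 and Bgn on the X chromosome. RefSeq (GRCm38.p6) gave a start for 8 members, and Dcn and Lum had no entry. The stretches from 125 to 26 bases upstream of that start are shown for the 4 members called lower in treated WWP2-/- cells and for Bgn, the most abundant member, which was not called. Capitals mark E-boxes (CANNTG, which reads as the same pattern on both strands), the kind of site bound by TWIST1 and other basic helix-loop-helix factors.
Aspn (chr13:49544318-49544417, plus strand): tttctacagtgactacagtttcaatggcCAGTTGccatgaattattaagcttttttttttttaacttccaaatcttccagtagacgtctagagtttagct
Ogn (chr13:49607890-49607989, plus strand): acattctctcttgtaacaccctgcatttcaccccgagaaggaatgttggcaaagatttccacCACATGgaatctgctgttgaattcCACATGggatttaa
Fmod (chr1:134037129-134037228, plus strand): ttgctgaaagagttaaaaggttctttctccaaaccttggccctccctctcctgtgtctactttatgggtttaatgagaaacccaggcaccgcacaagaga
Prelp (chr1:133921427-133921526, minus strand): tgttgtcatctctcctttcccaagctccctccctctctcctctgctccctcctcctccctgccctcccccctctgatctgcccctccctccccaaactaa
Bgn (chrX:73483476-73483575, plus strand): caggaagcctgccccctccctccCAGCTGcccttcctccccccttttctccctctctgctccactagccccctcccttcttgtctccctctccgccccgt

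Over the full 250 bases upstream, Ogn held 3 E-boxes, Aspn, Fmod and Bgn 1 each, and Prelp and Omd none, while 66.2% of the 32851 promoters in the table held at least 1. The SMAD core CAGAC, read on either strand, was found 2 times upstream of Fmod and 1 time upstream of Prelp, against 42.2% of all promoters with at least 1. TATAAA on either strand occurred 2 times each upstream of Aspn and Ogn, and in 12.4% of all promoters. Podn has a pair of starts in the table, with 3 E-boxes upstream of one and 1 upstream of the other, and Kera had none. A count of 3 or more was reached by 12.2% of promoters. These matches are letters in a window and were not tested as binding sites.

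Per kilobase of exon, Bgn was the most abundant member by far, with a mean of 358 CPM per kb over the 20 libraries. Ogn at 64.2 and Dcn at 63.5 CPM per kb came next, followed by Prelp at 9.34, Lum at 6.08, Podn at 5.08, Aspn at 4.70, Fmod at 2.56 and Omd at 0.757 CPM per kb. The spread between libraries was as large as many of these gaps, since the SD of Ogn was 82.8 and that of Dcn 75.1 CPM per kb, so their order is not resolved. The picture differed by genotype, as Ogn had a median of 181 CPM per kb in treated WT cells and of 1.85 in treated WWP2-/- cells.

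SLRP transcripts were lower in WWP2-/- than in WT myofibroblasts, and all 9 tested members, of classes I, II, III and V, were lower by sign, but not every one by test. With TGFβ1, 4 of 9 members fell (Aspn, Fmod, Prelp and Ogn) and none rose, where edgeR called 6.07% of all genes tested in either direction and 3.96% lower in WWP2-/-. All 9 fold changes were negative, with a median log2 value of -3.31 against 0.05 over all genes. Without TGFβ1, 2 of 9 members fell (Aspn and Prelp) and none rose, against 0.725% of all genes called and 0.622% called lower, and again all 9 fold changes were negative with a median of -2.76 against 0.08. For each of the 9 members both WWP2-/- group means lay below both WT group means. The comparisons share no library, but the labels do not state whether treated and untreated libraries came from the same cultures.

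**Figure D1:**
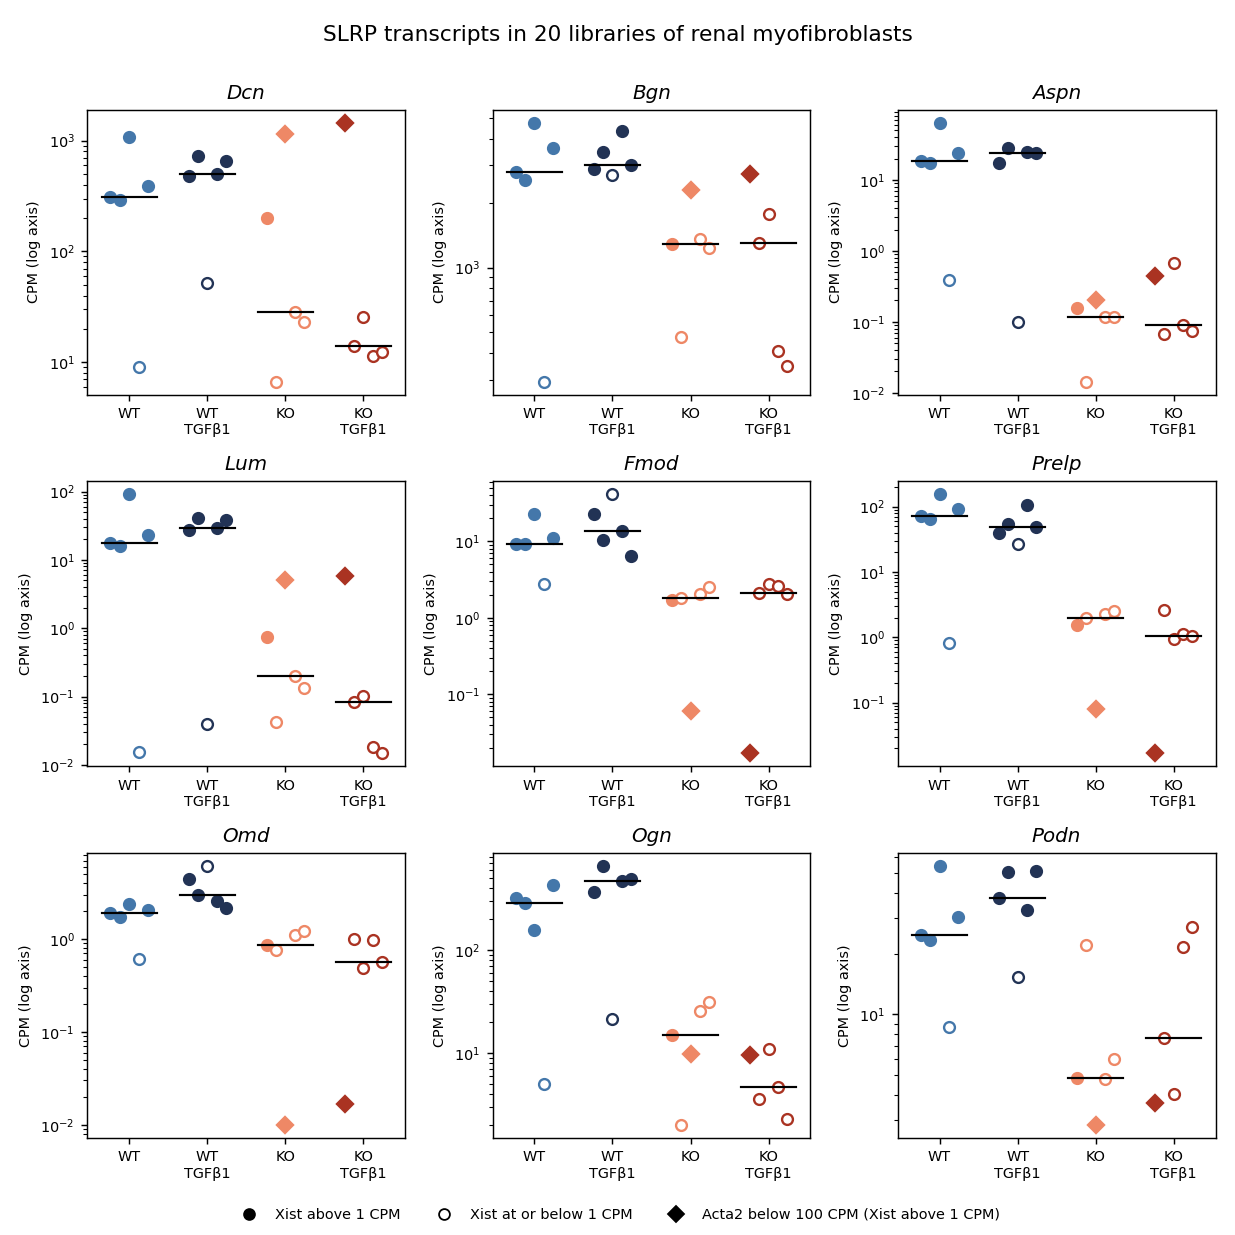
Expression of the 9 tested SLRP genes in 20 libraries, in CPM on log axes (5 libraries per group, black bar the group median, open points for libraries with Xist at or below 1 CPM, diamonds for the 2 WWP2-/- libraries with low Acta2). Aspn, Prelp and Ogn sit low in WWP2-/- libraries, the open WT points lie low for Dcn, Aspn, Lum and Ogn, and Omd in WWP2-/- untreated replicate 3, which had 0 counts, is drawn at the bottom of its panel.

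No WWP2-/- library reached the lowest WT library for Fmod, Prelp, Omd and Ogn with TGFβ1, 4 of 9 members, where 3.08% of all genes showed that pattern. Without TGFβ1 it held for Aspn and Fmod, 2 of 9 members against 1.29% of all genes. Fmod was the 1 member without overlap in both.

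**Figure D2:**
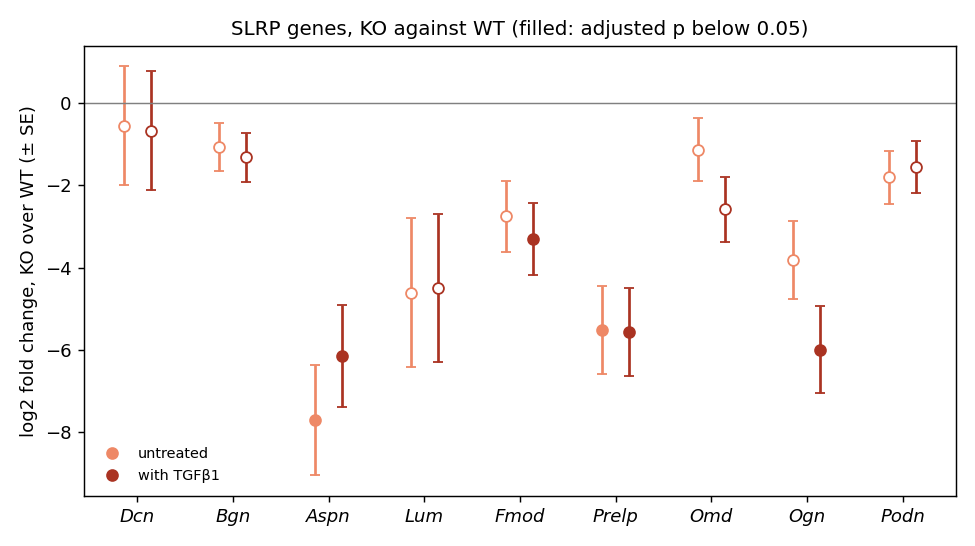
Log2 fold change of WWP2-/- over WT for the 9 tested SLRP genes, untreated and with TGFβ1 (points are edgeR estimates, bars 1 SE, filled points have adjusted p below 0.05). All points lie below 0, from -0.56 for Dcn to -7.71 for Aspn without TGFβ1.

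Among the class I members, asporin (Aspn), which unlike decorin and biglycan carries no glycosaminoglycan chain and binds TGFβ1, fell in both comparisons. In untreated WT replicates 1 to 5 its level was 18.8, 17.4, 64.4, 0.388 and 23.8 CPM, against 0.156, 0.0144, 0.201, 0.116 and 0.119 CPM in untreated WWP2-/- replicates. Under TGFβ1 the 5 WT libraries held 17.3, 28.4, 0.0998, 25.1 and 23.7 CPM and the 5 WWP2-/- libraries 0.438, 0.0665, 0.686, 0.0898 and 0.0740 CPM. Thus 8 WT libraries were high and the 2 WT libraries without Xist lay at or near the WWP2-/- level, so the treated groups overlapped and the untreated groups were separated only narrowly. The log2 fold change was -7.71 (SE 1.34, edgeR quasi-likelihood test with Benjamini-Hochberg adjusted *P* = 0.0214) without TGFβ1 and -6.15 (SE 1.24, adjusted *P* = 0.0121) with it. All 5 untreated WWP2-/- values rested on 1 to 12 counts and the treated ones on 4 to 34. Under TGFβ1 the call was kept when any 1 of the 20 libraries was left out. Untreated, edgeR's adjusted *P* rose to between 0.0508 and 0.0904 when WWP2-/- untreated replicate 1, 3, 4 or 5 or WT untreated replicate 3 or 5 was left out.

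Decorin (Dcn), which coats type I collagen and sequesters TGFβ, varied widely between WWP2-/- libraries. Its level in untreated WT was 306, 292, 1067, 9.13 and 393 CPM, and in untreated WWP2-/- 201, 6.69, 1147, 28.4 and 23.2 CPM. Under TGFβ1, WT libraries held 475, 732, 52.1, 502 and 661 CPM and WWP2-/- libraries 1452, 13.9, 25.8, 11.3 and 12.5 CPM. The highest value of all 20 was therefore in a WWP2-/- library, the treated one with low Acta2, while the other 4 treated WWP2-/- libraries lay below every WT library of their comparison. With all libraries, Dcn was not called, at log2 -0.68 (95% interval -3.51 to 2.16, adjusted *P* = 0.820 by edgeR) under TGFβ1 and -0.56 (-3.39 to 2.28, adjusted *P* = 0.877) without it. Without WWP2-/- TGFβ1 replicate 1 the treated value was -4.95 (edgeR adjusted *P* = 0.0393). The untreated value was -2.71 without WWP2-/- untreated replicate 3 and 0.11 without WT untreated replicate 3, and neither was called.

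Biglycan (Bgn), the close relative of decorin that also signals through Toll-like receptors, was lower in WWP2-/- libraries without passing the test. Untreated WT libraries held 2784, 2563, 4755, 294 and 3599 CPM and untreated WWP2-/- libraries 1296, 472, 2305, 1357 and 1235 CPM. With TGFβ1 the values were 2901, 3465, 2698, 4364.5 and 3024 CPM in WT and 2748, 1299.8, 1772, 408 and 349 CPM in WWP2-/-. WWP2-/- TGFβ1 replicate 1 reached into the WT range and the other 4 did not. The log2 fold change was -1.32 (95% interval -2.49 to -0.16, edgeR adjusted *P* = 0.177) with TGFβ1 and -1.07 (-2.23 to 0.09, adjusted *P* = 0.404) without. The 4 libraries with the least Bgn (WT untreated replicate 4, WWP2-/- untreated replicate 2 and WWP2-/- TGFβ1 replicates 4 and 5) were the 4 with the most macrophage marker RNA, at 3989, 1791, 3535 and 2556 CPM summed over 10 genes, against at most 1159 CPM elsewhere. The part of these cells in the result was not tested.

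Of the class II members, fibromodulin (Fmod), a keratan sulfate proteoglycan that binds type I collagen and guides its crosslinking, was lower in each WWP2-/- library than in any WT library of the same treatment. Untreated WT libraries held 9.34, 9.25, 23.1, 2.81 and 11.1 CPM and untreated WWP2-/- libraries 1.71, 1.84, 0.0604, 2.05 and 2.55 CPM. Treated WT libraries held 23.1, 10.5, 41.5, 13.9 and 6.45 CPM and treated WWP2-/- libraries 0.0168, 2.13, 2.80, 2.64 and 2.03 CPM. The 2 lowest values belonged to the WWP2-/- libraries with low Acta2, and the highest to WT TGFβ1 replicate 3, a library without Xist. The log2 fold change was -3.31 (SE 0.88, adjusted *P* = 0.0341 by edgeR) under TGFβ1 and -2.76 (SE 0.86, adjusted *P* = 0.148) without. DESeq2's Wald test called the untreated value (adjusted *P* = 0.0200). The treated call moved to adjusted *P* values of 0.0547 to 0.0695 in edgeR when WWP2-/- TGFβ1 replicate 2, 4 or 5 or WT TGFβ1 replicate 1, 2 or 4 was left out, and to 0.0732 with only the treated groups in the fit.

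PRELP (Prelp), which binds heparan sulfate and anchors basement membranes to the stroma beneath, fell in both comparisons. Its level in untreated WT was 72.4, 65.5, 155, 0.823 and 92.3 CPM and in untreated WWP2-/- 1.55, 1.95, 0.0805, 2.28 and 2.49 CPM. Under TGFβ1 it was 38.7, 54.5, 26.5, 107 and 48.4 CPM in WT and 0.0168, 2.61, 0.948, 1.13 and 1.05 CPM in WWP2-/-. The treated groups did not overlap, and untreated they overlapped through WT replicate 4 alone. The log2 fold change was -5.58 (SE 1.07, edgeR adjusted *P* = 0.01004), or 47.8-fold lower, with TGFβ1 and -5.52 (SE 1.07, adjusted *P* = 0.0264) without. The treated call was kept when any 1 library was left out. Untreated, edgeR's adjusted *P* lay between 0.0508 and 0.101 without any 1 of WWP2-/- untreated replicates 1 to 5 or of WT untreated replicates 1, 3 and 5. Prelp shares 350 exonic bases with an antisense gene, Gm15851, that had 0 counts in every library, and whether counting used strand is not given in the sources used here.

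Lumican (Lum), which orders collagen fibrils in skin and cornea, had its high and low libraries in common with Dcn. Untreated WT libraries held 17.7, 15.8, 91.6, 0.0155 and 23.0 CPM and untreated WWP2-/- libraries 0.740, 0.0431, 4.99, 0.202 and 0.133 CPM. With TGFβ1 the values were 27.8, 41.6, 0.0399, 29.4 and 38.8 CPM in WT and 5.86, 0.0831, 0.101, 0.0180 and 0.0148 CPM in WWP2-/-. As for Dcn, the low-Acta2 libraries were the highest of their groups and the Xist-lacking WT libraries the lowest of theirs. Both comparisons overlapped through those WT libraries alone, since the other WT libraries lay above every WWP2-/- library of their treatment. The log2 fold changes of -4.50 (95% interval -8.03 to -0.97, edgeR adjusted *P* = 0.133) with TGFβ1 and -4.62 (-8.17 to -1.07, adjusted *P* = 0.253) without were large but not called. Leaving out WWP2-/- TGFβ1 replicate 1 gave -9.06 (edgeR adjusted *P* = 0.0221). With all libraries, DESeq2's Wald test called the treated value (adjusted *P* = 0.0327) but not the untreated one (0.0592).

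Osteomodulin (Omd), a keratan sulfate proteoglycan first known from bone matrix, was the least abundant of the tested members. Untreated WT libraries held 1.93, 1.75, 2.39, 0.605 and 2.07 CPM and untreated WWP2-/- libraries 0.870, 0.761, 0, 1.11 and 1.22 CPM. Treated WT libraries held 4.42, 2.97, 6.17, 2.57 and 2.16 CPM and treated WWP2-/- libraries 0.0168, 1.01, 0.484, 0.970 and 0.563 CPM. The treated groups did not overlap, yet the log2 fold change of -2.58 (SE 0.80) had an adjusted *P* of 0.0600 in edgeR, and the untreated value was -1.14 (95% interval -2.63 to 0.36, adjusted *P* = 0.495). The treated value passed the threshold without WWP2-/- untreated replicate 3 (adjusted *P* = 0.0161), without WWP2-/- TGFβ1 replicate 1 (0.0473) and without WT untreated replicate 4 (0.0468), all by edgeR. It also passed with all libraries by DESeq2's Wald test (adjusted *P* = 0.00720). The bone markers Bglap, Ibsp, Sp7 and Dmp1 summed to at most 0.429 CPM in any library. Keratocan (Kera), the corneal member, had 6 counts in all, 3, 2 and 1 of them in treated WT replicates 2, 4 and 5, and the other 17 libraries had 0, which allows at most 0.0613 CPM in any of them (3 counts, counting error only).

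Osteoglycin (Ogn), the class III member, also called mimecan and known to regulate collagen fibril formation, showed the smallest adjusted *P* of the family under TGFβ1. Untreated WT libraries held 322, 286, 155, 5.08 and 422 CPM and untreated WWP2-/- libraries 15.1, 2.02, 9.74, 25.7 and 31.6 CPM. With TGFβ1 the levels were 365, 654, 21.4, 465 and 482 CPM in WT and 9.65, 3.58, 10.96, 4.74 and 2.28 CPM in WWP2-/-. The treated groups were separated, with WT replicate 3 nearest to the WWP2-/- range, and untreated WT replicate 4 lay inside that range. The log2 fold change was -5.99 (SE 1.05, edgeR adjusted *P* = 0.00706), or 63.8-fold lower, with TGFβ1 and -3.82 (SE 0.95, adjusted *P* = 0.0749) without. The treated call was kept when any 1 library was left out, and the untreated value passed without WT untreated replicate 4 (edgeR adjusted *P* = 0.00701) or WT TGFβ1 replicate 3 (0.0290). With all libraries, the untreated value passed by DESeq2's Wald test (adjusted *P* = 0.000341). The difference between these effects, the interaction of genotype and TGFβ1, was -2.17 (95% interval -4.55 to 0.21) with an edgeR adjusted *P* of 0.784.

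Podocan (Podn), a class V member first described in glomerular podocytes, was lower in most WWP2-/- libraries. Untreated WT libraries held 24.9, 23.3, 54.5, 8.69 and 30.4 CPM and untreated WWP2-/- libraries 4.82, 22.1, 2.84, 4.77 and 5.99 CPM. Treated WT libraries held 37.5, 50.5, 15.3, 33.1 and 51.1 CPM and treated WWP2-/- libraries 3.66, 7.65, 4.02, 21.5 and 27.1 CPM. The 3 WWP2-/- libraries above 20 CPM were the same 3 WWP2-/- libraries that had the least Bgn and the most macrophage marker RNA, so Podn and Bgn were at opposite ends there. Podn was not called, at log2 -1.55 (95% interval -2.80 to -0.31, edgeR adjusted *P* = 0.140) with TGFβ1 and -1.81 (-3.06 to -0.55, adjusted *P* = 0.209) without.

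The libraries that stood apart split the family into distinct sets. In the 2 WWP2-/- libraries with low Acta2, Dcn, Bgn and Lum were the highest of their group in both, while Fmod, Prelp, Omd and Podn were the lowest of their group in both. Fmod, Prelp and Omd were at most 0.0805 CPM there. In WT TGFβ1 replicate 3, by contrast, Fmod and Omd were the highest of their group and the other 7 members the lowest, and in WT untreated replicate 4 all 9 members were the lowest. With both low-Acta2 libraries left out, 7 of 9 members were called lower under TGFβ1, beside 3480 of 20182 genes called in either direction. Untreated, 3 of 9 were called lower, beside 271 of those 20182 genes. Dcn then reached -4.92 under TGFβ1 (edgeR adjusted *P* = 0.0147). That choice was made after the data were seen.

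**Figure D3:**
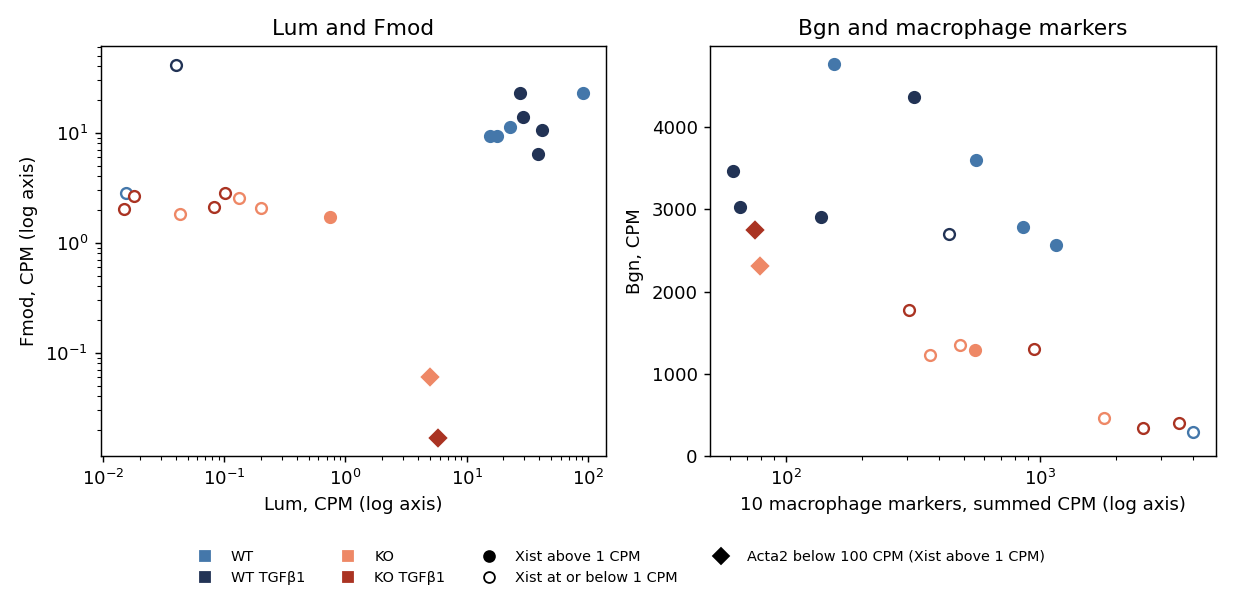
Left, Fmod against Lum, and right, Bgn against the summed level of 10 macrophage markers, in CPM for each of 20 libraries (log axes except for Bgn, open points for libraries with Xist at or below 1 CPM, diamonds for low Acta2). The 2 diamonds combine Lum of 4.99 and 5.86 CPM with Fmod of 0.0604 and 0.0168 CPM, WT TGFβ1 replicate 3 combines Lum of 0.0399 with Fmod of 41.5 CPM, and the 4 libraries with 1791 to 3989 CPM of macrophage markers have 294 to 472 CPM of Bgn.

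Xist differed between the genotypes, so levels were also compared among libraries with Xist above 1 CPM and among those lacking it. Of the 3 WWP2-/- libraries with Xist, 2 were the low-Acta2 libraries. The other, WWP2-/- untreated replicate 1, had Xist at 33.7 CPM, against 108 to 291 CPM in the rest of the libraries with Xist. Among the 11 libraries with Xist, every one of the 3 WWP2-/- libraries lay below every one of the 8 WT libraries for 7 of 9 members (Aspn, Lum, Fmod, Prelp, Omd, Ogn and Podn), a pattern that 9.44% of all genes showed. Ogn, for example, was at 9.65 to 15.1 CPM in those WWP2-/- libraries and at 155 to 654 CPM in those WT libraries. Dcn was the exception with the widest overlap, at 201 to 1452 CPM against 292 to 1067 CPM. Among the 9 libraries lacking Xist, 7 WWP2-/- and 2 WT, the pattern held for 1 of 9 members, Fmod, at 1.84 to 2.80 CPM against 2.81 to 41.5 CPM, beside 2.14% of all genes. There Aspn was at 0.0144 to 0.686 CPM in WWP2-/- and at 0.0998 and 0.388 CPM in WT, and Ogn at 2.02 to 31.6 against 5.08 and 21.4 CPM.

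The same split in edgeR, with treatment kept apart, called 6 of 9 members lower with TGFβ1 and 6 of 9 without among libraries with Xist, beside 2012 and 1663 genes in all. Among libraries lacking Xist it called 2 with TGFβ1 beside 21 genes in all, Fmod at -4.13 (adjusted *P* = 0.00500) and Prelp at -4.22 (0.0340), and 0 of the 8 members fitted without, where 0 members and 643 genes had an unadjusted *P* under 0.05 and edgeR called 0 genes in all (DESeq2 was not run on that split). Untreated, 6 members turned positive there, Ogn to 1.998, Bgn to 1.83, Prelp to 1.48, Dcn to 1.13, Omd to 0.80 and Podn to 0.35, each set against the single library WT untreated replicate 4. The treated libraries with Xist held 1 WWP2-/- library, the one with low Acta2, and each WT group lacking Xist held 1. In such fits a lone library is assumed to vary like the other groups. The split fits covered 18685 genes among libraries with Xist, and 18982 genes and 8 members among those lacking it. With Xist as a covariate instead, which called 544 genes with TGFβ1 and 84 without, Fmod, Prelp and Omd were called under TGFβ1, Aspn was at -3.35 (edgeR adjusted *P* = 0.226) and Ogn at -4.74 (adjusted *P* = 0.0708), Dcn turned to 0.18, and edgeR called 0 untreated members, with 5 at unadjusted *P* under 0.05. Xist status, culture composition and library were not separated further, and their part in the reduction was not tested.

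TGFβ1 itself moved no member past the threshold. In WT cells the log2 fold changes of treated over untreated ran from -0.49 for Prelp to 1.06 for Omd (95% interval -0.42 to 2.54), and in WWP2-/- cells from -1.43 for Ogn (-3.13 to 0.27) to 1.16 for Aspn (-1.13 to 3.45). The interaction ran from -2.17 for Ogn to 1.56 for Aspn. In all 3, edgeR called 0 members and 0% of genes, with 0 members and 1397, 713 and 1424 genes at an unadjusted *P* under 0.05, and the Wald test of DESeq2 called 0 members and 27, 44 and 10 genes. In all 3, the 95% intervals of all 9 tested members reached beyond a log2 change of 1, up or down. Changes of that size were therefore not excluded.

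Of the other SLRP family genes, 2 of 8 tested fell in treated WWP2-/- cells and none rose, and 1 to 3 were called with each library left out in turn. Ecm2, which lies beside Aspn, was at -2.91 (SE 0.61, edgeR adjusted *P* = 0.0133) with TGFβ1 and at -2.84 (SE 0.61, adjusted *P* = 0.0404) without, where it was the 1 gene of 8 called. Epyc, epiphycan of growth cartilage, named because the count was small, had 0 counts in the 5 treated WWP2-/- libraries and 0 to 0.694 CPM in treated WT, a mean at least 6.25-fold higher than the floor of 3 counts per library (edgeR adjusted *P* = 0.0304). Of 10 listed collagens of the matrix that SLRPs bind, fibrillar, fibril-associated and type VI, 7 fell under TGFβ1 and 1 fell untreated, with 9 and 10 negative fold changes. Over all genes, edgeR called 6.07% and 0.725%. With each library left out in turn, 1 to 9 collagens were called under TGFβ1 and 0 to 3 untreated. Of the called genes, Col14a1 at -3.97, Col12a1 at -3.30, Col1a2 at -2.63 and Col6a2 at -2.51 had the largest changes under TGFβ1, and Col5a2 at -1.74 was the untreated call. Medians were -2.57 and -1.55 over the 10 collagens, against 0.05 and 0.08 over all genes.

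For genes of enzymes that build the sugar chains and of SLRP receptors, calls stand beside 6.07% of all genes with TGFβ1 and 0.725% untreated. Of 7 genes of the linker that joins chain to core, 1 rose under TGFβ1, B4galt7 at 0.82 (SE 0.23), and edgeR called none untreated, with 0 at unadjusted *P* under 0.05 and 0 by DESeq2. Of 16 genes of chondroitin and dermatan sulfate synthesis edgeR called 0 in either comparison, with 8 and 1 at unadjusted *P* under 0.05 and 4 and 1 by DESeq2. Of 7 tested keratan sulfate genes, B4galt4 fell by 0.86 on the log2 scale (SE 0.21) under TGFβ1, and untreated edgeR called 0, with 1 at unadjusted *P* under 0.05 and 0 by DESeq2. Of 11 genes of receptors that bind SLRP proteins, Cd44, a hyaluronan receptor, rose by log2 1.46 (SE 0.26) and Kdr, the endothelial VEGF receptor, fell by 1.76 on the log2 scale (SE 0.47) with TGFβ1, and untreated edgeR called 0, with 4 at unadjusted *P* under 0.05 and 2 by DESeq2. Calls under TGFβ1 depended on single libraries. Leaving each out in turn gave 0 to 1 linker, 0 to 4 chondroitin and dermatan sulfate, 0 to 2 keratan sulfate and 1 to 3 receptor genes.

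Markers of other cells moved with the groups as well. With TGFβ1, all 10 macrophage markers had positive fold changes in WWP2-/- with a median log2 of 2.56. EdgeR called 0 of them, with 10 at unadjusted *P* under 0.05 and 10 by DESeq2, and their sum was 75.4 to 3535 CPM in WWP2-/- and 61.9 to 437 CPM in WT. Untreated, all 10 had negative fold changes with a median of -0.84, and edgeR called 0, with 0 at unadjusted *P* under 0.05 and 0 by DESeq2. All 8 tested markers of tubular epithelium had positive fold changes with TGFβ1, with a median log2 of 2.09, and 5 of 8 had negative ones untreated, with a median of -0.35. Slc34a1 was at 0 in every treated library, the treated sum was 12.3 to 567 CPM in treated WWP2-/- and 42.2 to 212 CPM in treated WT, and edgeR called 0 of 8 tested, with 1 at unadjusted *P* under 0.05 and 1 by DESeq2. Of 8 endothelial markers Tek at -2.87 and Kdr at -1.76 fell, while the other 6 had positive fold changes and the median was 0.60. Of 6 tested cartilage and tendon markers Tnmd at -9.40 and Matn3 at -3.82 fell, and of 10 myofibroblast markers Fap at -5.96, Col1a2 and Col1a1 fell. Untreated, Tek at -3.32 and Tnmd at -6.82 were the calls among these lists. Periostin (Postn), a matrix protein among the listed TGFβ1 response genes, fell at -2.44 in treated WWP2-/- cells. The part of these markers in the SLRP result was not tested.

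The genes most like each member over the 20 libraries were found by Pearson's r of log2(CPM + 2) among 13518 genes with a mean of at least 1 CPM. The closest were Ecm2 for Aspn (r = 0.990), Dact1 for Dcn (0.978), Cdh26 for Prelp (0.977), Emilin2 for Lum (0.982), Fbln7 for Ogn (0.974), Jam2 for Bgn (0.968), Ccdc3 for Omd (0.951), Sh3rf3 for Fmod (0.951) and Pdp1 for Podn (0.938). Among the members themselves Fmod and Omd, on different chromosomes, were alike with r = 0.948, and Dcn and Lum, neighbours on chromosome 10, had 0.959 over the 10 WT and 0.953 over the 10 WWP2-/- libraries. Lum and Fmod had 0.09 over the WT and -0.97 over the WWP2-/- libraries. In WWP2-/-, Lum was at 4.99 and 5.86 CPM in the low-Acta2 libraries and at most 0.740 CPM elsewhere. In WT, it was at most 0.0399 CPM in the Xist-lacking libraries and at least 15.8 CPM in the others. The r values without those libraries were not computed. For Dcn, Bgn, Aspn, Lum, Fmod and Ogn, none of the 3 closest by Pearson's r was among the 3 closest by Spearman's rank correlation. The libraries share groups and fall into the sets described, so these values describe the 20 libraries only.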

How the data were processed

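Poly-A RNA of cultured renal myofibroblasts was sequenced in 20 libraries, 5 per group. Per the labels and the study's methods, the authors aligned paired-end reads to GRCm38 (mm10) with STAR and deposited whole-number counts per gene from featureCounts. The strand setting is not given in the sources used here. No 2 libraries held identical values. From the counts, edgeR 4.0.16 in R 4.3.3 gave TMM-scaled CPM and quasi-likelihood F tests, two-sided, in 1 fit of 4 groups, over the 20407 genes that reached 5 counts in 5 or more libraries. P values were adjusted by Benjamini-Hochberg over these genes, with a threshold of 0.05, and every P printed comes from this fit unless said otherwise. CPM per kb divides by the union of GENCODE M21 exons. DESeq2 1.42.0 (Wald test), other scalings and filters, a replicate block, Xist as a covariate and leaving out each library were alternatives. Members and gene lists were chosen with earlier results of these data known. Named were all members and, per list and comparison, up to 4 called genes by fold size with a mean of at least 1 CPM, plus Acta2, Wwp2 and Xist. Matn3, below 1 CPM, and Epyc were named after their values were seen. Total counts limit the precision of low members to a few reads. Intervals of fold changes are estimates ± 1.96 SE.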

Additional observations from a re-analysis of the deposited data

Results flagged for a closer look

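Single libraries far from the other 4 of their group were found for 13 of 36 combinations of member and group by Dixon's test at the 95% level. Chance meets that rule in about 1 in 20 groups of independent, normally distributed values. CPM values here were skewed and the members shared libraries, so that rate is only a rough guide. All 13 lay in 4 libraries. WT untreated replicate 4, which lacked Xist and had the most macrophage marker RNA, was low for Dcn (9.13 CPM), Bgn (294 CPM), Prelp (0.823 CPM) and Ogn (5.08 CPM). WT TGFβ1 replicate 3, which also lacked Xist, was low for Dcn (52.1 CPM), Aspn (0.0998 CPM), Lum (0.0399 CPM) and Ogn (21.4 CPM). WWP2-/- TGFβ1 replicate 1, with low Acta2, was high for Dcn (1452 CPM) and Lum (5.86 CPM) and low for Fmod (0.0168 CPM). WWP2-/- untreated replicate 3, also with low Acta2, was high for Lum (4.99 CPM) and low for Fmod (0.0604 CPM). What sets these cultures apart was not tested.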

How the results depend on the processing

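With TGFβ1, the 4 SLRP calls became 1 with at least 10 counts required in every library, 1 at an adjusted *P* below 0.01, 7 without the low-Acta2 libraries and 2 among libraries lacking Xist, and lay between 3 and 7 with each library left out in turn. Untreated, the 2 calls became 0 under the 10-count filter, the replicate block, Xist as a covariate, only the groups compared, an adjusted *P* below 0.01 and libraries lacking Xist, 4 by DESeq2's Wald test, 4 without the Xist-lacking WT libraries and 6 among libraries with Xist, and lay between 0 and 3 with each library left out. The replicate block gave 3 calls with TGFβ1, with Fmod lost (edgeR adjusted *P* = 0.0816). Same-numbered libraries correlated above 0.1 in 11 of 20 pairs (-0.54 to 0.53), and 6 of 20 were closest to their own number, so the numbers were not taken as pairing. Libraries of other numbers in the opposite treatment reached 0.953 for WWP2-/- untreated replicate 3, 0.894 for WWP2-/- untreated replicate 2 and 0.767 for WT untreated replicate 4. Whether such libraries share a culture was not tested, so the treated and untreated comparisons may not be independent. Dcn reversed with Xist as a covariate (0.18 with TGFβ1, 0.63 untreated), among libraries with Xist (1.31 and 0.33) and, untreated, among those lacking it (1.13), and ran from -2.71 to 0.11 untreated with each library left out. Among libraries lacking Xist, Aspn with TGFβ1 (1.16) and untreated Bgn (1.83), Prelp (1.48), Omd (0.80), Ogn (1.998) and Podn (0.35) also reversed. All of these reversed values missed the threshold. Genes called in all moved from 1238 to between 453 and 2730 with TGFβ1 and from 148 to between 1 and 743 untreated with each library left out. The causes were not tested. DESeq2 size factors and no filter on low counts left both SLRP counts at 4 and 2. Lum could not be fitted among libraries lacking Xist. The settings on Acta2 and on sets of Xist libraries were chosen after seeing the data.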
